A study of Mus musculus with 36 samples.

Results

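The genes described here are 41 mouse genes that define T cells or act as their checkpoint and costimulatory receptors, measured in RNA taken from tumour-associated macrophages (TAM). They were chosen by name, with earlier results of these data known, and every row whose gene name was on the list was used. All 41 were found among the 56575 gene models of the B16 table and the 57252 of the MC38 table. The study sequenced 36 libraries in 12 groups of 3, and the 18 TAM libraries are used here. TAM came from mice labelled wild type that bore B16-F10, a melanoma line, or MC38, a colon carcinoma line. In each model 1 group was given phosphate-buffered saline (PBS), 1 OMV-SIRP and 1 OMV-SIRP-G, which are engineered outer membrane vesicles, that is, particles derived from the outer membrane of bacteria. The labels do not spell out SIRP or G, and give no dose, time or age for these mice. The design text speaks of samples being pooled and separate mice are named nowhere for the replicate libraries. The p-values therefore reflect only how much these samples scatter, which could be technical.

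T cells recognise antigen through a receptor whose alpha and beta chains sit in the membrane with the CD3 signalling subunits. On binding, the kinase Lck phosphorylates the CD3 tails, Zap70 docks there, and the adaptor Lat passes the signal on. Checkpoint receptors such as CTLA4 and PD1 restrain that signal, and costimulatory receptors such as ICOS and the TNF receptor family members strengthen it. Macrophages do not make the receptor chains, so in RNA labelled TAM these transcripts are followed here as a measured quantity of each library. In bulk RNA, fewer T cells and less RNA per T cell cannot be told apart.

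FPKM, the deposited unit, are fragments per kilobase of gene length scaled to depth, so levels can be compared between genes. The 18 libraries held 13036567 to 16737363 assigned reads, and 12818 (MC38 OMV-SIRP 2) to 21580 genes had a read. The tissue label was checked with 12 macrophage markers, whose summed FPKM was 4748 to 5179 in B16 PBS, 5259.9 to 7241 in B16 OMV-SIRP and 11728 to 12112 in B16 OMV-SIRP-G. In MC38 the sum was only 253 to 519 after PBS, against 2454 to 6036 after OMV-SIRP and 3489 to 3643 after OMV-SIRP-G. The 3 libraries labelled MC38 PBS had 0 FPKM of Mertk, a macrophage receptor, and 4.91 to 8.0 FPKM of Csf1r, the receptor for the macrophage growth factor, so they went against their TAM label. Their 5 neutrophil markers summed to 247 to 543 FPKM, against 30.0 to 156 and 31.6 to 46.8 in the treated groups. Mitochondrial reads made up 2.98% to 5.07% of their reads, 15.2% to 21.5% after OMV-SIRP and 6.06% to 6.46% after OMV-SIRP-G. In B16 the shares were 15.2% to 19.7% after PBS, 18.4% to 21.3% after OMV-SIRP and 13.02% to 14.22% after OMV-SIRP-G, which lay below both other groups, and their part in the B16 results was not tested. Every MC38 comparison with PBS below rests on these libraries, and the comparison of OMV-SIRP-G with OMV-SIRP is the MC38 result without them in the contrast. The part of this difference in the MC38 results was not tested.

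In B16 TAM the T cell genes were highest in the PBS libraries and lower after both treatments. The summed FPKM of the 7 receptor and CD3 chain genes was 295, 219 and 225 in the PBS libraries, 101, 99.6 and 135 after OMV-SIRP and 85.0, 79.5 and 92.8 after OMV-SIRP-G. The 3 groups did not overlap, and their means were 246 ± 42.7, 112 ± 20.3 and 85.8 ± 6.68 (SD, n = 3). In MC38 TAM the order was the opposite. The same sum was 84.6, 134 and 245 after PBS, 164, 213 and 187 after OMV-SIRP and 339.6, 323 and 345 after OMV-SIRP-G, with means of 155 ± 82.4, 188 ± 24.6 and 336 ± 11.3 (SD, n = 3). The MC38 PBS and OMV-SIRP libraries overlapped because PBS 3 was far above PBS 1 and 2, while the OMV-SIRP-G libraries stood above all the others. These sums are a description and were not tested.

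**Figure D1:**
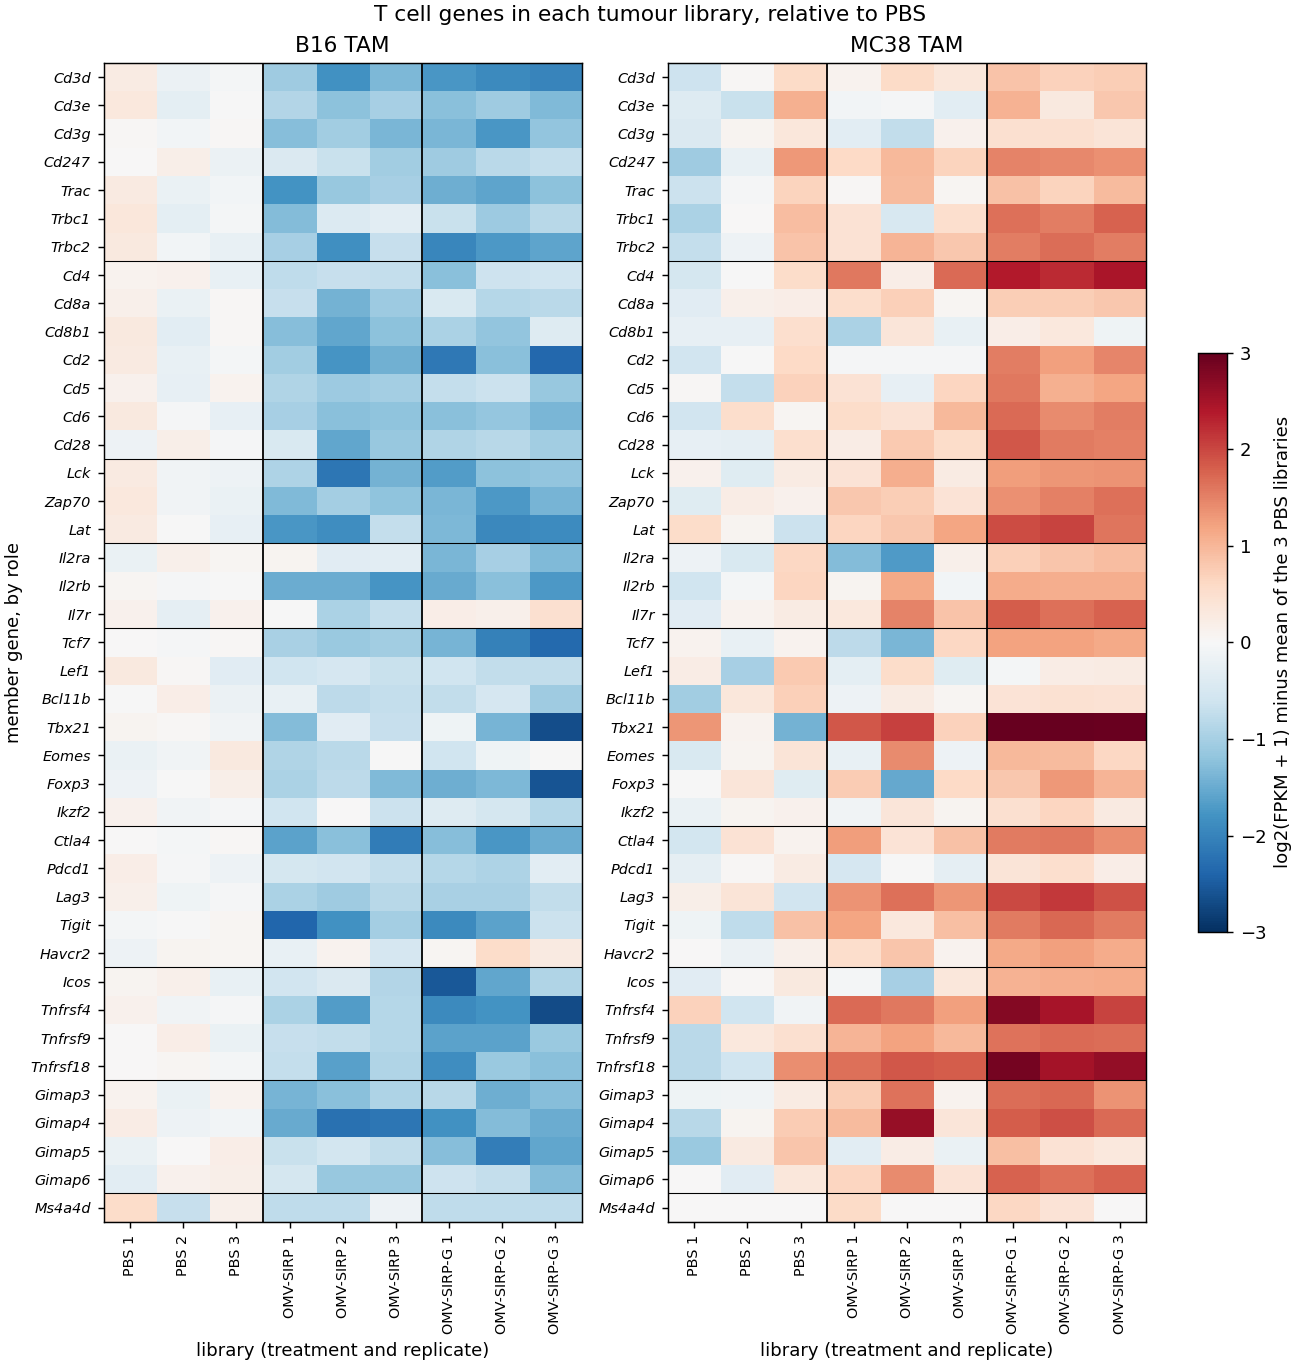
Each cell is the log2(FPKM + 1) of a member gene (rows, grouped by role between black lines) in a library (columns) minus the mean of the 3 PBS libraries of the same tumour, with blue for lower and red for higher. Most rows are blue in the 6 treated B16 libraries and red in the 3 OMV-SIRP-G libraries of MC38, while Havcr2 and Il7r are not blue in B16 OMV-SIRP-G.

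Of the 41 genes, 39 passed the filter on low values in B16 TAM and 40 in MC38 TAM. Ms4a4d, a member of the MS4A membrane protein family, was at or below 1.46 FPKM in every library of both models. Lef1, a transcription factor gene related to Tcf7, was not tested in B16. There Lef1 was at 1.05, 0.721 and 0.329 FPKM after PBS, 0.0980, 0.184 and 0.0588 after OMV-SIRP and 0.112, 0 and 0 after OMV-SIRP-G. Changes are given as log2 change of FPKM + 1 with its SE, mean FPKM are given ± SD over the 3 libraries of a group, and a gene is said to rise or fall where the limma adjusted p, over all genes tested, was below 0.05. In B16, 17 of the 39 tested members fell after OMV-SIRP and none rose, where 0.566% of all genes tested fell and 0.885% rose. With limma voom on the recovered reads 24 members fell and none rose, where 89 of 12542 genes tested fell and 100 rose. After OMV-SIRP-G 32 of 39 fell and none rose, where 7.28% of all genes fell and 7.83% rose. The groups did not overlap for 34 and 36 members that were lower, against 8.75% and 18.6% of all genes. They were separate and higher for 0 members after OMV-SIRP and 1 (Il7r) after OMV-SIRP-G, against 7.88% and 17.4% of all genes. The members' median log2 change was -1.04 after OMV-SIRP and -1.36 after OMV-SIRP-G, and that of all genes tested was -0.01 and -0.03. Both comparisons share the PBS libraries.

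**Figure D2:**
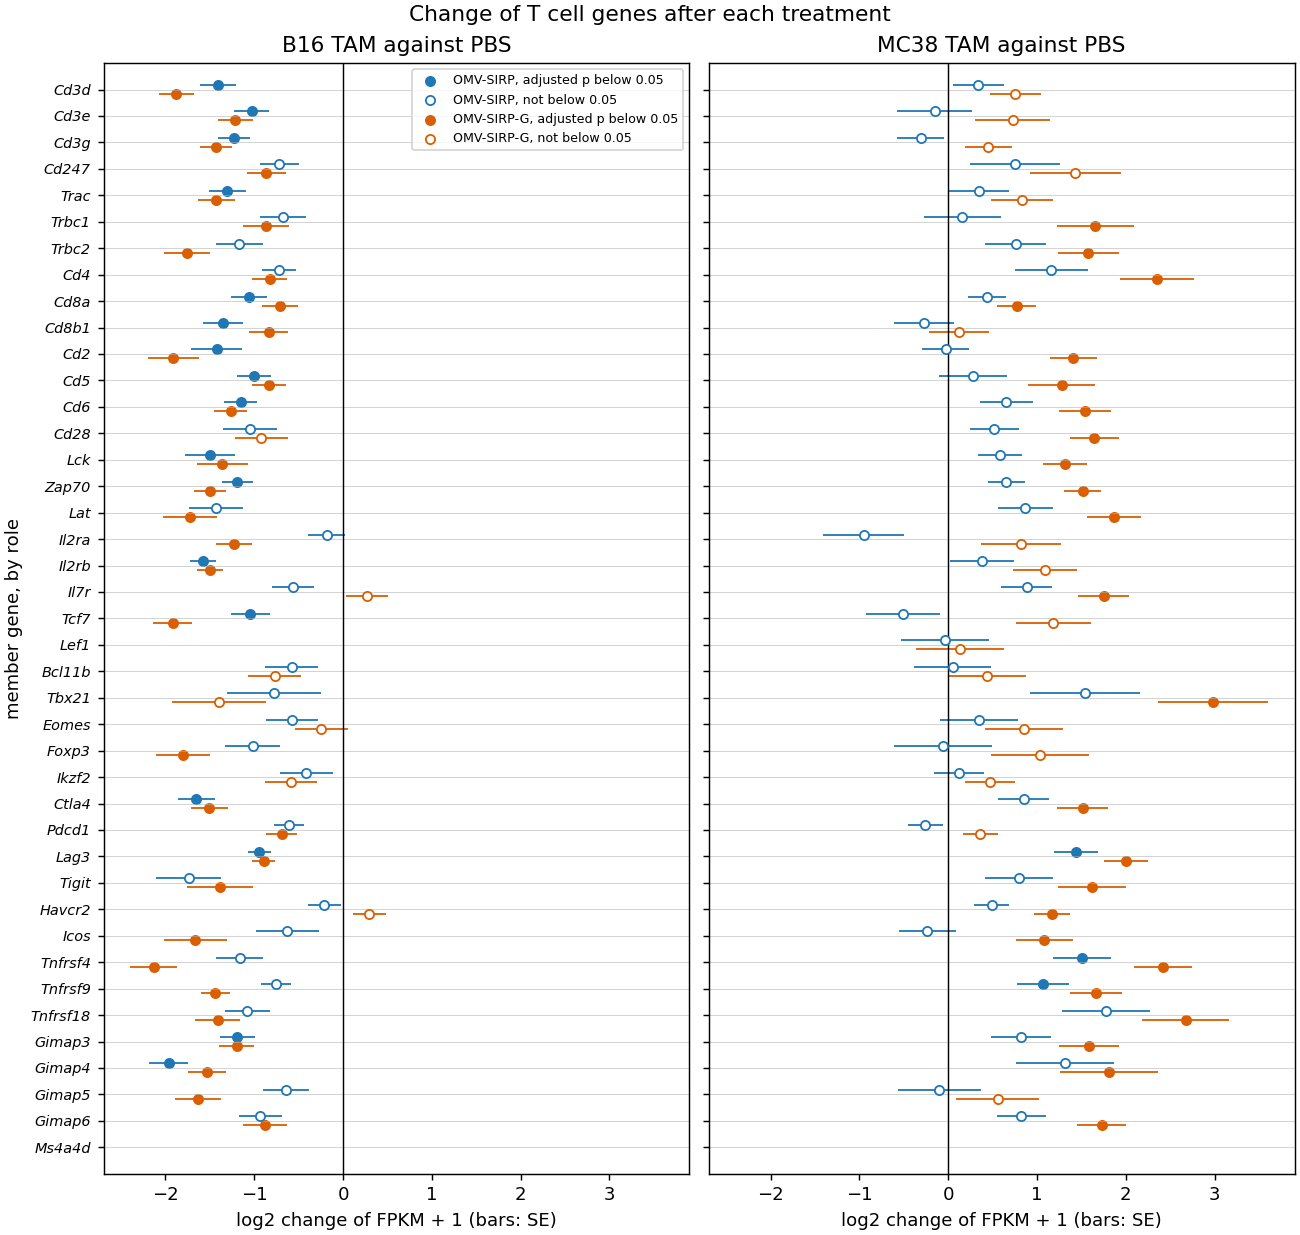
Points are log2 changes of FPKM + 1 against PBS (horizontal axis, bars SE) for each tested member (rows, by role) after OMV-SIRP (blue) and OMV-SIRP-G (orange), filled where the limma adjusted p was below 0.05. In B16 TAM the filled points, 17 and 32, all lie to the left of 0, and in MC38 TAM the filled points, 3 and 24, all lie to the right.

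All 7 receptor and CD3 chain genes fell after OMV-SIRP-G in B16 and 4 of them after OMV-SIRP. Cd3d, the delta subunit of CD3, was at 33.1, 24.3 and 26.8 FPKM in the PBS libraries, 12.7, 7.21 and 10.4 after OMV-SIRP and 7.54, 6.69 and 6.36 after OMV-SIRP-G. No treated library reached the lowest PBS library, and the gene fell after OMV-SIRP (log2 change -1.41 ± 0.20, adjusted p = 0.00587) and after OMV-SIRP-G (log2 change -1.88 ± 0.20, adjusted p = 0.000191). Cd3g, the gamma subunit, was nearly constant after PBS at 16.4, 15.0 and 16.3 FPKM. It was at 6.01, 7.18 and 5.58 after OMV-SIRP (log2 change -1.23 ± 0.18, adjusted p = 0.00636) and 5.58, 4.05 and 6.41 after OMV-SIRP-G (log2 change -1.43 ± 0.18, adjusted p = 0.000485). Cd3e, the epsilon subunit, fell from 11.0 ± 2.57 to 4.82 ± 0.727 and 4.11 ± 0.482 FPKM, by 1.03 ± 0.20 and 1.21 ± 0.20 on the log2 scale (adjusted p = 0.0293 and 0.00231). Cd247 encodes the zeta chain, which carries most of the receptor's signalling motifs, and was the lowest of the 7 at 4.29 ± 0.634 FPKM after PBS. It fell after OMV-SIRP-G (log2 change -0.86 ± 0.22, adjusted p = 0.0251), and after OMV-SIRP it had a log2 change of -0.72 ± 0.22 with an adjusted p of 0.231.

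Trac, the constant region of the alpha chain, was at 78.4, 56.9 and 61.4 FPKM after PBS. The OMV-SIRP libraries were at 18.2, 29.0 and 32.2 and the OMV-SIRP-G libraries at 22.9, 21.0 and 27.1, again with no overlap with PBS. It fell in both comparisons (log2 change -1.30 ± 0.21, adjusted p = 0.0118 and log2 change -1.43 ± 0.21, adjusted p = 0.00135). Trbc1 and Trbc2 are the constant regions of the beta chain, lie 6.85 kb apart on chromosome 6 and are near-identical, so the split of reads between them is uncertain. Trbc2 averaged 84.2 ± 16.5 FPKM after PBS and fell to 24 ± 3.07 after OMV-SIRP-G (log2 change -1.76 ± 0.26, adjusted p = 0.00175), and Trbc1 was only just past the threshold (log2 change -0.86 ± 0.26, adjusted p = 0.0496). After OMV-SIRP neither passed, with log2 changes of -1.17 ± 0.26 and -0.68 ± 0.26.

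The 3 CD3 genes that fell together in B16 lie next to each other on chromosome 9 (GRCm38). Cd3g (44969572 to 44980431, minus strand) and Cd3d (44981786 to 44987339, plus strand) point away from each other across 1354 bases, and Cd3e (44998740 to 45009627, minus strand) follows 11.4 kb further on. Their promoter windows are shown to place these neighbours, with that of Havcr2, a checkpoint gene that did not fall in B16, for comparison. Each window runs from 250 bases before to 50 after a gene start of RefSeq (GRCm38.p6) and is written 5′ to 3′ on the strand of the gene, with capitals for a RUNX-type motif (TGNGGT) or an ETS-type motif (AGGAAG) on either strand. Both families of factors are known regulators of T cell genes. N stands for any base, so TGNGGT is a loose pattern that also matches letters outside the RUNX core motif.
Cd3g (chr9:44980382-44980681, minus strand): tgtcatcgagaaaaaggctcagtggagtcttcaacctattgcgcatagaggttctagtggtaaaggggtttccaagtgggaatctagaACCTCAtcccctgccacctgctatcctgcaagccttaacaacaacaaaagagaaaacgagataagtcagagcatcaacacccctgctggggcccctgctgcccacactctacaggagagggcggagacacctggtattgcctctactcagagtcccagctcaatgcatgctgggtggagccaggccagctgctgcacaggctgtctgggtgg
Cd3d (chr9:44981536-44981835, plus strand): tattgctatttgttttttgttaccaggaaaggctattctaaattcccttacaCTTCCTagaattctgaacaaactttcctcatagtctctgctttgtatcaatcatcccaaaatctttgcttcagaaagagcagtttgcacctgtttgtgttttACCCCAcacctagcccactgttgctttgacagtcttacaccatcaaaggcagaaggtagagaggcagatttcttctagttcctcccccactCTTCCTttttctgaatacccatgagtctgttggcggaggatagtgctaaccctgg
Cd3e (chr9:45009562-45009861, minus strand): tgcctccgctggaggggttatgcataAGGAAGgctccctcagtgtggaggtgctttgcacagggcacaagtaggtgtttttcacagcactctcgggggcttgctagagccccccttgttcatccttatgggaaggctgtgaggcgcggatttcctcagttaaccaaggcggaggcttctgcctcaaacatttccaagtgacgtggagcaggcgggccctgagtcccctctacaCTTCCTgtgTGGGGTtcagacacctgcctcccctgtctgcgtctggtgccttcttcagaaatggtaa
Havcr2 (chr11:46454681-46454980, plus strand): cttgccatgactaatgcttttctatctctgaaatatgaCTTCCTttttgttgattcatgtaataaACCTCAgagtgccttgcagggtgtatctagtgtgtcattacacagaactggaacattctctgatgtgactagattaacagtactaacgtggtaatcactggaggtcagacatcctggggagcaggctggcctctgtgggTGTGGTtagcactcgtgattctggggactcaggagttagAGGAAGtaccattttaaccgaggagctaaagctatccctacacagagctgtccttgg
The Cd3g window held 1 RUNX-type and 0 ETS-type motifs, the Cd3d and the Cd3e windows 1 and 2 each, and the Havcr2 window 2 and 2. Of the 41 members, 29 had a window in the RefSeq table, 38 windows in all. A RUNX-type motif stood in 57.9% of these 38 windows and in 45.8% of all 32851 windows, and an ETS-type motif in 57.9% and 35.4%. Motifs were counted wherever their letters occurred, overlaps between the 2 motifs included. A match says only that these letters are there.

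Among the 7 coreceptor and accessory genes 5 fell after OMV-SIRP and 6 after OMV-SIRP-G in B16. Cd8a and Cd8b1, the chains of the coreceptor for MHC class I, lie side by side on chromosome 6. Cd8b1 was at 36, 23.1 and 29.8 FPKM after PBS, 11.5, 9.26 and 11.8 after OMV-SIRP (log2 change -1.35 ± 0.22, adjusted p = 0.0134) and 14.7, 12.3 and 22.0 after OMV-SIRP-G (log2 change -0.84 ± 0.22, adjusted p = 0.0296). All treated libraries were below PBS, with OMV-SIRP-G 3 the closest to it. Cd8a fell from 18.8 ± 2.5 to 8.61 ± 2.41 and 11.1 ± 1.86 FPKM (log2 changes -1.06 ± 0.20 and -0.71 ± 0.20). Cd4, the coreceptor for MHC class II, fell after OMV-SIRP-G (log2 change -0.82 ± 0.20, adjusted p = 0.0182) and did not pass after OMV-SIRP (log2 change -0.72 ± 0.20, adjusted p = 0.156). Cd2, which encodes an adhesion receptor, was at 38.9, 27.1 and 30.8 FPKM after PBS, 14.9, 8.60 and 11.1 after OMV-SIRP and 6.46, 12.9 and 5.46 after OMV-SIRP-G. Its fall after OMV-SIRP-G was the largest of this group (log2 change -1.91 ± 0.29, adjusted p = 0.00173). Cd5 and Cd6, neighbours on chromosome 19 that encode related receptors tempering T cell activation, fell in both comparisons, Cd5 by 1.00 ± 0.19 and 0.83 ± 0.19 and Cd6 by 1.15 ± 0.18 and 1.27 ± 0.18 on the log2 scale. Cd28, the main costimulatory receptor of naive T cells, was low at 2.57 ± 0.432 FPKM after PBS and passed in neither comparison (log2 changes -1.05 ± 0.30 and -0.92 ± 0.30).

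The 3 proximal signalling genes fell after OMV-SIRP-G, and Lck and Zap70 also after OMV-SIRP. Zap70 was at 24.7, 18.3 and 17.0 FPKM after PBS, 7.29, 9.18 and 7.92 after OMV-SIRP (log2 change -1.19 ± 0.18, adjusted p = 0.00823) and 6.97, 5.31 and 6.84 after OMV-SIRP-G (log2 change -1.5 ± 0.18, adjusted p = 0.000394). Lck fell from 32.8 ± 5.77 to 11.6 ± 5.10 and 12.2 ± 2.30 FPKM. Lat averaged 18 ± 3.54 FPKM after PBS and fell to 4.79 ± 1.38 after OMV-SIRP-G (log2 change -1.72 ± 0.30, adjusted p = 0.00375), and after OMV-SIRP it missed the threshold (log2 change -1.43 ± 0.30, adjusted p = 0.051).

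The cytokine receptor genes did not share a pattern. Il2rb, the beta chain of the receptors for interleukins IL-2 and IL-15, which NK cells carry too, had the lowest adjusted p of all members in both comparisons. It was at 53.7, 50.5 and 51.4 FPKM after PBS, 17.9, 17.9 and 14.5 after OMV-SIRP (log2 change -1.58 ± 0.15, adjusted p = 0.000516) and 17.6, 21.3 and 14.9 after OMV-SIRP-G (log2 change -1.49 ± 0.15, adjusted p = 0.00012). Il2ra, the alpha chain that marks activated and regulatory T cells, was at 3.97, 5.34 and 4.97 FPKM after PBS and 5.10, 3.55 and 3.63 after OMV-SIRP, which overlapped. It was at 1.22, 1.88 and 1.29 after OMV-SIRP-G, below both other groups (log2 change -1.23 ± 0.21, adjusted p = 0.00298). Il7r, the IL-7 receptor chain of naive and memory T cells, was at 11.2, 8.31 and 11.1 FPKM after PBS, 9.98, 4.74 and 5.76 after OMV-SIRP and 11.7, 11.3 and 14.5 after OMV-SIRP-G, and passed in neither comparison with PBS (log2 changes -0.57 ± 0.24 and 0.27 ± 0.24). Its OMV-SIRP-G libraries were the highest of the 9.

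Of the 6 transcription factor genes tested in B16, Tcf7 fell after both treatments and Foxp3 after OMV-SIRP-G. Tcf7, which marks naive and stem-like T cells, was at 15.2, 14.6 and 15.4 FPKM after PBS, 7.24, 6.47 and 6.75 after OMV-SIRP (log2 change -1.04 ± 0.22, adjusted p = 0.0498) and 5.11, 2.93 and 2.20 after OMV-SIRP-G (log2 change -1.92 ± 0.22, adjusted p = 0.000301). The 3 groups formed separate steps. Foxp3, the factor that defines regulatory T cells, was at 10.6, 11.8 and 13.6 FPKM after PBS, 5.67, 6.54 and 4.18 after OMV-SIRP and 3.67, 4.12 and 1.14 after OMV-SIRP-G (log2 change -1.80 ± 0.31, adjusted p = 0.00317). After OMV-SIRP all 3 libraries were below PBS but the gene did not pass (log2 change -1.02 ± 0.31, adjusted p = 0.22). Tbx21, which encodes T-bet, was scattered after OMV-SIRP-G at 4.76, 1.43 and 0 FPKM against 5.67, 5.53 and 4.88 after PBS (log2 change -1.40 ± 0.53, adjusted p = 0.111). Bcl11b, needed for T cell commitment, Eomes, of effector and NK cells, and Ikzf2, found in many regulatory T cells, were at or below 2.86 FPKM in every B16 library and passed in neither comparison.

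The inhibitory checkpoint receptors split in B16, since 4 of 5 fell after OMV-SIRP-G and Havcr2 did not. Ctla4, whose product competes with CD28 for its ligands, was at 31.7, 30.5 and 32.5 FPKM after PBS, 9.76, 12.6 and 6.56 after OMV-SIRP (log2 change -1.65 ± 0.21, adjusted p = 0.00322) and 12.4, 8.68 and 10.6 after OMV-SIRP-G (log2 change -1.5 ± 0.21, adjusted p = 0.00104). Lag3, which binds MHC class II, was at 35.2, 28.9 and 30.6 FPKM after PBS, 15.9, 14.6 and 17.3 after OMV-SIRP and 15.6, 15.5 and 18.4 after OMV-SIRP-G, and fell in both (log2 change -0.94 ± 0.13, adjusted p = 0.00587 and log2 change -0.90 ± 0.13, adjusted p = 0.00145). For both genes the treated libraries were far from PBS and overlapped each other. Pdcd1, which encodes PD1, was at 39.1, 33.5 and 30.4 FPKM after PBS and 18.5, 17.6 and 27.4 after OMV-SIRP-G (log2 change -0.69 ± 0.17, adjusted p = 0.0225). After OMV-SIRP it was at 23.3, 22.6 and 20.3 FPKM and did not pass (log2 change -0.61 ± 0.17, adjusted p = 0.18). Tigit, a receptor for the nectin family, had the highest PBS level of the 5 at 61.2, 63.2 and 66.7 FPKM and spread widely after treatment, at 11.5, 17.3 and 30.8 after OMV-SIRP (log2 change -1.74 ± 0.37, adjusted p = 0.0648) and 16.3, 20.1 and 40.6 after OMV-SIRP-G (log2 change -1.38 ± 0.37, adjusted p = 0.0353). Havcr2, which encodes TIM3 and is also made by myeloid cells, was at 12.5, 15.0 and 14.6 FPKM after PBS, 11.8, 15.1 and 9.55 after OMV-SIRP (log2 change -0.21 ± 0.19, adjusted p = 0.814) and 14.6, 21.0 and 17.2 after OMV-SIRP-G (log2 change 0.30 ± 0.19, adjusted p = 0.337). These groups overlapped.

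All 4 costimulatory receptor genes fell after OMV-SIRP-G and none passed after OMV-SIRP, where their log2 changes ran from -1.16 to -0.63. Tnfrsf4, which encodes OX40, was at 54.3, 45.6 and 48.2 FPKM after PBS, 24.9, 14.7 and 26.7 after OMV-SIRP (log2 change -1.16 ± 0.26, adjusted p = 0.0744) and 12.3, 13.4 and 6.80 after OMV-SIRP-G (log2 change -2.13 ± 0.26, adjusted p = 0.000516). The last of these was the largest fall of any tested member. Tnfrsf9, which encodes CD137, was at 33.3, 38.1 and 29.1 FPKM after PBS, 20.3, 19.6 and 18.1 after OMV-SIRP and 10.3, 10.3 and 15.0 after OMV-SIRP-G, with 3 groups that did not overlap (log2 change -1.44 ± 0.17, adjusted p = 0.000312 for OMV-SIRP-G). Tnfrsf18, which encodes GITR and lies 9.55 kb from Tnfrsf4 on chromosome 4, averaged 30.0 ± 1.20 FPKM after PBS and fell to 10.9 ± 3.07 (log2 change -1.41 ± 0.25, adjusted p = 0.00407). Icos averaged 7.48 ± 1.14 FPKM after PBS and fell to 1.95 ± 1.54, with OMV-SIRP-G 1 the lowest at 0.441 (log2 change -1.66 ± 0.35, adjusted p = 0.0103). The Gimap genes, a cluster on chromosome 6 that encodes GTPases needed for lymphocyte survival, fell too, all 4 after OMV-SIRP-G and Gimap3 and Gimap4 after OMV-SIRP. Gimap4 was at 40.4, 31.0 and 32.7 FPKM after PBS, 11.5, 6.56 and 6.96 after OMV-SIRP (log2 change -1.96 ± 0.22, adjusted p = 0.00136) and 9.06, 13.5 and 11.6 after OMV-SIRP-G (log2 change -1.53 ± 0.22, adjusted p = 0.00116). Gimap3 and Gimap5 are close paralogs, so reads may be split between them, and their changes after OMV-SIRP-G were -1.20 ± 0.20 and -1.64 ± 0.26. Gimap6 fell after OMV-SIRP-G by 0.88 ± 0.24 on the log2 scale.

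Several of these B16 calls were lost when a single library was left out. For OMV-SIRP the calls of Cd3d, Cd3g, Il2rb, Ctla4, Lag3 and Gimap4 held whichever library was left out. Trac lost its call without PBS 1 (adjusted p = 0.0607), Zap70 without OMV-SIRP 1 (0.0566) and Cd6 without OMV-SIRP 2 or either of PBS 1 and PBS 2 (up to 0.0582). The other 8 (Cd3e, Cd8a, Cd8b1, Cd2, Cd5, Lck, Tcf7 and Gimap3) were each lost without at least 4 of the 9 libraries in turn, with adjusted p up to 0.189. The count of 17 became 7, 11 and 9 without PBS 1, 2 and 3, and 10 and 8 without OMV-SIRP 1 and 2. For OMV-SIRP-G 23 of 32 calls held whichever library was left out. Cd4 was lost without PBS 1 or 2 (adjusted p up to 0.0729), Cd5 without PBS 1 or 3 (0.0687), and Pdcd1 without library 1 or 2 of PBS or of OMV-SIRP-G (0.0816). Cd247, Cd8a, Cd8b1, Gimap6, Tigit and Trbc1 were lost without at least 4 libraries in turn, with adjusted p up to 0.159.

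Markers of other cells also changed in B16, some in the same direction as the T cell genes and some in the opposite direction. Of 6 cytotoxic effector genes (granule, chemokine and cytokine genes of T and NK cells), 4 fell after OMV-SIRP and 6 after OMV-SIRP-G. Their summed FPKM was 453 to 536 after PBS, 231 to 249 after OMV-SIRP and 211 to 236 after OMV-SIRP-G. This list is not specific to T and NK cells, as its bone marrow sums below show. Of 7 NK cell markers 2 and 4 fell, with sums of 37.7 to 42.5, 23.1 to 28.3 and 7.90 to 17.5, and Ncr1, a receptor that defines NK cells, was at 0 in all 3 OMV-SIRP-G libraries. All 12 macrophage markers rose after OMV-SIRP-G and 2 after OMV-SIRP, and all 3 red cell markers fell after both, from sums of 14265 to 15636 after PBS to 1964 to 2654 and 2799.8 to 2813. The 5 melanocyte markers fell after OMV-SIRP-G, from sums of 2800.3 to 3053 to 773 to 879, and none passed after OMV-SIRP, at 2288 to 2531 FPKM. The 5 B cell markers summed to 21.6 to 27.7, 25.2 to 32.8 and 20.2 to 25.9 FPKM, and 1 of the 4 tested fell after OMV-SIRP-G and 0 after OMV-SIRP. Of 6 dendritic cell markers 1, Ccr7, fell after OMV-SIRP-G and 0 passed after OMV-SIRP, with sums of 109 to 110.4, 127 to 141 and 57.8 to 60.6. Of 4 neutrophil markers tested 2 rose after OMV-SIRP-G and 0 passed after OMV-SIRP, with sums over the list of 9.10 to 14.7, 4.30 to 9.82 and 8.39 to 20.5. The part of these cells in the change of the T cell genes was not tested. A further 33 genes of T cell signalling and T cell state that are not members gave 28 tested, of which 2 fell after OMV-SIRP and 8 fell and 2 rose after OMV-SIRP-G. Thy1, a surface marker of T cells, fell after both (-0.87 ± 0.12 and -1.22 ± 0.12 on the log2 scale), as did Sh2d2a, an adaptor that binds Lck (-1.08 ± 0.16 and -0.97 ± 0.16). Ccr7, the lymph node homing receptor, which is on the dendritic cell list too, fell after OMV-SIRP-G (-1.02 ± 0.10). Fyb, an adaptor that myeloid cells also make, rose (0.98 ± 0.13), and the other gene that rose was the adaptor gene Lcp2 (0.57 ± 0.14), named after its value was seen.

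Between the treatments in B16, OMV-SIRP-G left 5 of 39 members lower than OMV-SIRP and 1 higher, where 5.62% of all genes were lower and 6.35% higher, so the shares were of the same order as the background. The groups did not overlap for 8 members that were lower and 2 that were higher (Cd8b1 and Il7r), against 13.9% and 13.9% of all genes. In the same comparison all 12 macrophage markers were higher, while 5 of 5 melanocyte, 4 of 6 dendritic cell and 3 of 4 fibroblast markers, 1 of 4 B cell markers, 1 of 3 mast cell markers and the 1 plasma cell marker tested were lower. No NK cell marker or cytotoxic effector gene passed, and 1 of 3 red cell markers and 1 of 4 neutrophil markers tested were higher. The part of these cells was not tested. The members' median log2 change was -0.14. The lower genes were Tnfrsf4 (-0.97 ± 0.26), Tnfrsf9 (-0.68 ± 0.17), Tcf7 (-0.88 ± 0.22), Il2ra (-1.04 ± 0.21) and Gimap5 (-0.99 ± 0.26), and the higher was Il7r (0.84 ± 0.24). Only the call of Il2ra held whichever library was left out (adjusted p = 0.00986, at most 0.0367). The others were each lost without at least 4 of 9 libraries in turn, with adjusted p up to 0.139. Without 1 library at a time 2 to 4 members passed, the fewest without OMV-SIRP 1 or 3 or OMV-SIRP-G 2. There were 3 without PBS 2 or 3 or OMV-SIRP-G 1 or 3, and 4 without PBS 1 or OMV-SIRP 2. The 7 chain genes had log2 changes from -0.59 to -0.13, and none passed.

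In MC38 TAM the T cell genes were higher after OMV-SIRP-G than in the libraries labelled PBS. Of 40 tested members 24 rose and none fell, where 13.1% of all genes rose and 6.86% fell. For 33 members the groups did not overlap, against 25.5% of all genes that were higher in the same way. All 40 changes were above 0, with a median of 1.36 against 0.07 for all genes tested. After OMV-SIRP 3 members rose and none fell, where 7.4% of all genes rose and 3.49% fell, so the share of members past the threshold was near the background. The groups did not overlap for 9 members that were higher and 0 that were lower, against 15.5% and 12.8% of all genes. Their median was 0.46 against 0.03 for all genes. The deposited FPKM were not scaled by the assigned read totals alone, and scaling to total reads instead moved the median of all genes to -0.27 after OMV-SIRP and -0.08 after OMV-SIRP-G. The members' medians were then 0.10, with 23 of 40 above 0, and 1.19, with 39 of 40 above 0 and Cd8b1 below it. Under that scaling 697 of all genes were higher and 1635 lower after OMV-SIRP, against 1042 and 492 with the deposited scaling, and 1551 and 1431 after OMV-SIRP-G, against 1843 and 966.

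Only 2 of the 7 chain genes, Trbc1 and Trbc2, rose after OMV-SIRP-G in MC38. Trbc2 was at 21.4, 32.1 and 65.6 FPKM after PBS, 48.5, 73.9 and 63.5 after OMV-SIRP and 105, 116 and 105 after OMV-SIRP-G (log2 change 1.58 ± 0.35, adjusted p = 0.0137). Trbc1 was at 14.5, 29.1 and 55.9 FPKM after PBS, 39.5, 20.2 and 41.6 after OMV-SIRP and 92.8, 86.0 and 101 after OMV-SIRP-G (log2 change 1.66 ± 0.43, adjusted p = 0.0278). In both, PBS 3 lay above PBS 1 and 2 and below every OMV-SIRP-G library. Cd3d was at 7.47, 12.4 and 18.5 FPKM after PBS, 13.1, 18.4 and 15.4 after OMV-SIRP and 22.6, 19.9 and 20.7 after OMV-SIRP-G, and did not pass (log2 change 0.75 ± 0.29, adjusted p = 0.0951). Cd3e was at 4.92, 3.89 and 15.1 FPKM after PBS and 15.1, 8.59 and 12.7 after OMV-SIRP-G, where PBS 3 was as high as the highest OMV-SIRP-G library (log2 change 0.72 ± 0.42, adjusted p = 0.254). Trac (0.83 ± 0.34), Cd3g (0.45 ± 0.26) and Cd247 (1.43 ± 0.51) did not pass either. After OMV-SIRP none of the 7 passed, and their changes ran from -0.31 to 0.76.

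Among coreceptors and accessory genes 6 of 7 rose after OMV-SIRP-G. Cd4 had the largest change of this group, from 1.45, 2.49 and 4.14 FPKM after PBS to 17.2, 15.6 and 18.2 after OMV-SIRP-G (log2 change 2.35 ± 0.42, adjusted p = 0.00563), with 9.49, 3.06 and 10.53 after OMV-SIRP (log2 change 1.16 ± 0.42, adjusted p = 0.106). OMV-SIRP 2 lay with the PBS libraries and OMV-SIRP 1 and 3 between PBS and OMV-SIRP-G. Cd8a averaged 18.3 ± 3.71 FPKM after PBS and rose to 31.4 ± 0.824 (log2 change 0.77 ± 0.22, adjusted p = 0.0352), and Cd8b1 was at 24.9, 24.9 and 42.4 FPKM after PBS and 34.0, 37.1 and 27.0 after OMV-SIRP-G, which overlapped (log2 change 0.12 ± 0.34, adjusted p = 0.83). Cd2 was at 12.3, 18.5 and 28.9 FPKM after PBS, 18.4, 18.4 and 18.5 after OMV-SIRP and 56.5, 45.2 and 53.7 after OMV-SIRP-G (log2 change 1.41 ± 0.26, adjusted p = 0.00723). Its OMV-SIRP libraries were nearly equal and inside the PBS range. Cd28 (1.65 ± 0.28), Cd6 (1.54 ± 0.29) and Cd5 (1.28 ± 0.38) rose as well. The signalling genes Lat (1.87 ± 0.31), Zap70 (1.51 ± 0.21) and Lck (1.31 ± 0.25) all rose, and Zap70 was at 6.92, 11.0 and 10.3 FPKM after PBS, 17.0, 15.9 and 12.7 after OMV-SIRP and 25.3, 28.4 and 31.2 after OMV-SIRP-G, in steps that did not overlap.

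Of the cytokine receptors Il7r rose after OMV-SIRP-G, from 9.18, 12.8 and 14.5 to 44.9, 39.9 and 43.2 FPKM (log2 change 1.75 ± 0.29, adjusted p = 0.00426). Il2rb was the most abundant of the 3 at 34.1, 49.9 and 81.0 FPKM after PBS, 55.0, 115 and 48.7 after OMV-SIRP and 112, 110.2 and 111 after OMV-SIRP-G, and missed the threshold (log2 change 1.09 ± 0.36, adjusted p = 0.0637). The OMV-SIRP-G libraries agreed closely, whereas OMV-SIRP 2 was above them and OMV-SIRP 1 and 3 inside the PBS range. Il2ra had a log2 change of 0.82 ± 0.45 after OMV-SIRP-G and -0.95 ± 0.45 after OMV-SIRP, neither past the threshold. Of the 7 transcription factors 1 rose, Tbx21, which had the largest change of all members (log2 change 2.98 ± 0.62, adjusted p = 0.0111). It was at 5.74, 1.88 and 0 FPKM after PBS, 8.81, 10.1 and 3.36 after OMV-SIRP and 20.2, 20.4 and 20.1 after OMV-SIRP-G. Every OMV-SIRP-G library was above the other 6. Tcf7 was at 14.0, 11.0 and 14.0 FPKM after PBS, 7.02, 4.42 and 20.4 after OMV-SIRP and 31.2, 31.2 and 29.7 after OMV-SIRP-G (log2 change 1.19 ± 0.42, adjusted p = 0.0781). Foxp3 (1.04 ± 0.55), Eomes (0.85 ± 0.44), Ikzf2 (0.47 ± 0.28), Bcl11b (0.44 ± 0.43) and Lef1 (0.14 ± 0.50) did not pass.

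Checkpoint and costimulatory receptors rose together after OMV-SIRP-G in MC38, 4 of 5 and 4 of 4. Lag3 was at 10.3, 11.9 and 5.66 FPKM after PBS, 24.3, 30.1 and 23.8 after OMV-SIRP (log2 change 1.44 ± 0.25, adjusted p = 0.00867) and 37.8, 41.8 and 36.1 after OMV-SIRP-G (log2 change 2.0 ± 0.25, adjusted p = 0.0014). The 3 groups did not overlap. Havcr2 rose from 17.6, 15.5 and 19.6 to 39.8, 42.6 and 39.1 FPKM after OMV-SIRP-G (log2 change 1.17 ± 0.20, adjusted p = 0.00489), Ctla4 from 7.65, 16.2 and 12.6 to 36.5, 36.6 and 32.5 (log2 change 1.51 ± 0.29, adjusted p = 0.00726) and Tigit from 15.8, 9.67 and 32.7 to 52.6, 59.5 and 52.9 (log2 change 1.62 ± 0.38, adjusted p = 0.0189). Pdcd1 did not pass, at 24.3, 30.4 and 35.5 FPKM after PBS, 20.8, 29.2 and 24.7 after OMV-SIRP and 39.0, 42.6 and 34.3 after OMV-SIRP-G (log2 change 0.36 ± 0.20, adjusted p = 0.22). The PBS libraries overlapped with both treated groups.

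Tnfrsf18 was at 1.51, 1.92 and 10.6 FPKM after PBS, 12.8, 15.0 and 14.6 after OMV-SIRP (log2 change 1.78 ± 0.49, adjusted p = 0.0503) and 31.4, 23.7 and 26.5 after OMV-SIRP-G (log2 change 2.67 ± 0.49, adjusted p = 0.00682). Tnfrsf4 was at 11.3, 4.04 and 6.07 FPKM after PBS, 23.6, 21.6 and 16.9 after OMV-SIRP (log2 change 1.5 ± 0.33, adjusted p = 0.022) and 50.1, 41.1 and 30.0 after OMV-SIRP-G (log2 change 2.42 ± 0.33, adjusted p = 0.00191). Tnfrsf9 was the most abundant of the 4, at 21.1, 46.8 and 52.9 FPKM after PBS, 77.2, 87.2 and 75.0 after OMV-SIRP (log2 change 1.07 ± 0.29, adjusted p = 0.0482) and 118, 124 and 122 after OMV-SIRP-G (log2 change 1.67 ± 0.29, adjusted p = 0.00544). In all 3 the groups formed ordered steps, with PBS lowest and OMV-SIRP-G highest. Icos averaged 15.7 ± 3.50 FPKM after PBS and 14.0 ± 6.39 after OMV-SIRP, and rose to 33.8 ± 0.873 after OMV-SIRP-G (log2 change 1.08 ± 0.32, adjusted p = 0.0427). Gimap6 (1.73 ± 0.28), Gimap4 (1.81 ± 0.55) and Gimap3 (1.58 ± 0.34) rose after OMV-SIRP-G and Gimap5 did not pass (0.56 ± 0.47). Gimap4 was at 33.0, 108 and 21.9 FPKM after OMV-SIRP, so OMV-SIRP 2 alone exceeded every OMV-SIRP-G library.

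Of the 24 MC38 calls for OMV-SIRP-G, 16 held whichever library was left out. Trbc2 was lost without OMV-SIRP-G 2 (adjusted p = 0.0528), Gimap3 without OMV-SIRP-G 1 or 2 (0.0508) and Tigit without PBS 1 or any OMV-SIRP-G library (0.0673). Trbc1 and Cd8a were lost without PBS 1, PBS 2 or any OMV-SIRP-G library (0.0874 and 0.112). Cd5, Gimap4 and Icos were lost without those or OMV-SIRP 1 (0.156, 0.139 and 0.123). For OMV-SIRP the count of 3 was 1 without PBS 2, 7 without PBS 3 and 7 without OMV-SIRP 3, and Lag3 was the call that held throughout. Without OMV-SIRP 3, 5 members were higher and 2 lower, namely Il2ra (-1.51) and Tcf7 (-1.08). Without PBS 3 and OMV-SIRP 2 together, the libraries with the fewest detected genes, 8 members rose after OMV-SIRP and 32 after OMV-SIRP-G. Over the 13570 genes then tested, 1380 rose and 662 fell after OMV-SIRP, and 2741 rose and 1960 fell after OMV-SIRP-G.

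Set against OMV-SIRP, OMV-SIRP-G gave higher values for all 40 tested members in MC38, with a median log2 change of 0.79 against 0.05 for all genes, but none passed, where 0.149% of all genes tested were higher and 0.234% lower. With limma voom 1 member was higher, where 47 of 14089 genes tested were higher and 42 lower. The groups did not overlap for 32 members that were higher, against 12.4% of all genes. The largest changes were those of Il2ra (log2 change 1.78 ± 0.45, adjusted p = 0.165) and Tcf7 (log2 change 1.70 ± 0.42, adjusted p = 0.154), and the lowest adjusted p was that of Cd2 (log2 change 1.44 ± 0.26, adjusted p = 0.0769). Without OMV-SIRP 3 the members past the threshold were Il2ra, Tcf7 and Icos. Without PBS 1 or PBS 3 the member past it was Cd2 and without OMV-SIRP 2 Gimap6. Without PBS 3 and OMV-SIRP 2 together 12 members were higher, where 319 of 13570 genes tested were higher and 325 lower. With scaling to total reads the median of the members was 0.98 and that of all genes 0.21. Markers of other cells shifted too, with median log2 changes of 0.95 (NK cell), 0.94 (cytotoxic effector), 0.92 (B cell) and 1.37 (dendritic cell). The medians were -0.22 for macrophage, -0.91 for red cell and -1.61 for fibroblast markers. Of these markers 1 passed, a fibroblast marker that was lower. The part of these cells in this comparison was not tested.

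Markers of other cells also changed in MC38, not all of them in the direction of the T cell genes. Of the 12 macrophage markers 11 rose after OMV-SIRP and 12 after OMV-SIRP-G. Of 7 NK cell markers 3 and 6 rose, with sums of 48.3 to 92.3 FPKM after PBS, 67.2 to 141 after OMV-SIRP and 181 to 189.7 after OMV-SIRP-G. Ncr1 was at 1.46, 0.645 and 0 FPKM after PBS and 14.0, 12.2 and 13.7 after OMV-SIRP-G. Of the 6 cytotoxic effector genes, a list not specific to T and NK cells, 2 and 5 rose, with sums of 176 to 284, 312 to 1364 and 1146 to 1233. Of 5 B cell markers none passed after OMV-SIRP and 2 rose after OMV-SIRP-G, with sums of 2.48 to 19.1, 4.67 to 49.2 and 39.2 to 43.6. Of 4 dendritic cell markers tested 0 passed after OMV-SIRP and 1 rose after OMV-SIRP-G, with sums over the list of 137 to 207, 40.5 to 474 and 671 to 747. Of 4 fibroblast markers 3 rose after OMV-SIRP, and 1 rose and 1 fell after OMV-SIRP-G, with sums of 11.7 to 19.1, 36.6 to 90.01 and 17.9 to 19.3. Of 3 epithelial markers tested 1 rose after each treatment, and so did 1 of 3 gamma delta T cell markers tested. Of 4 neutrophil markers tested 1 rose and 2 fell after OMV-SIRP, and 0 rose and 2 fell after OMV-SIRP-G. Their part in the change of the T cell genes was not tested. Of the 33 further T cell genes 30 were tested, and 3 rose after OMV-SIRP and 12 after OMV-SIRP-G. Runx3, a transcription factor of CD8 T cells, rose after both (1.22 ± 0.24 and 1.69 ± 0.24 on the log2 scale), and so did Sh2d2a (1.39 ± 0.34 and 2.21 ± 0.34). Btla, an inhibitory receptor, rose after OMV-SIRP-G (2.29 ± 0.38).

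**Figure D3:**
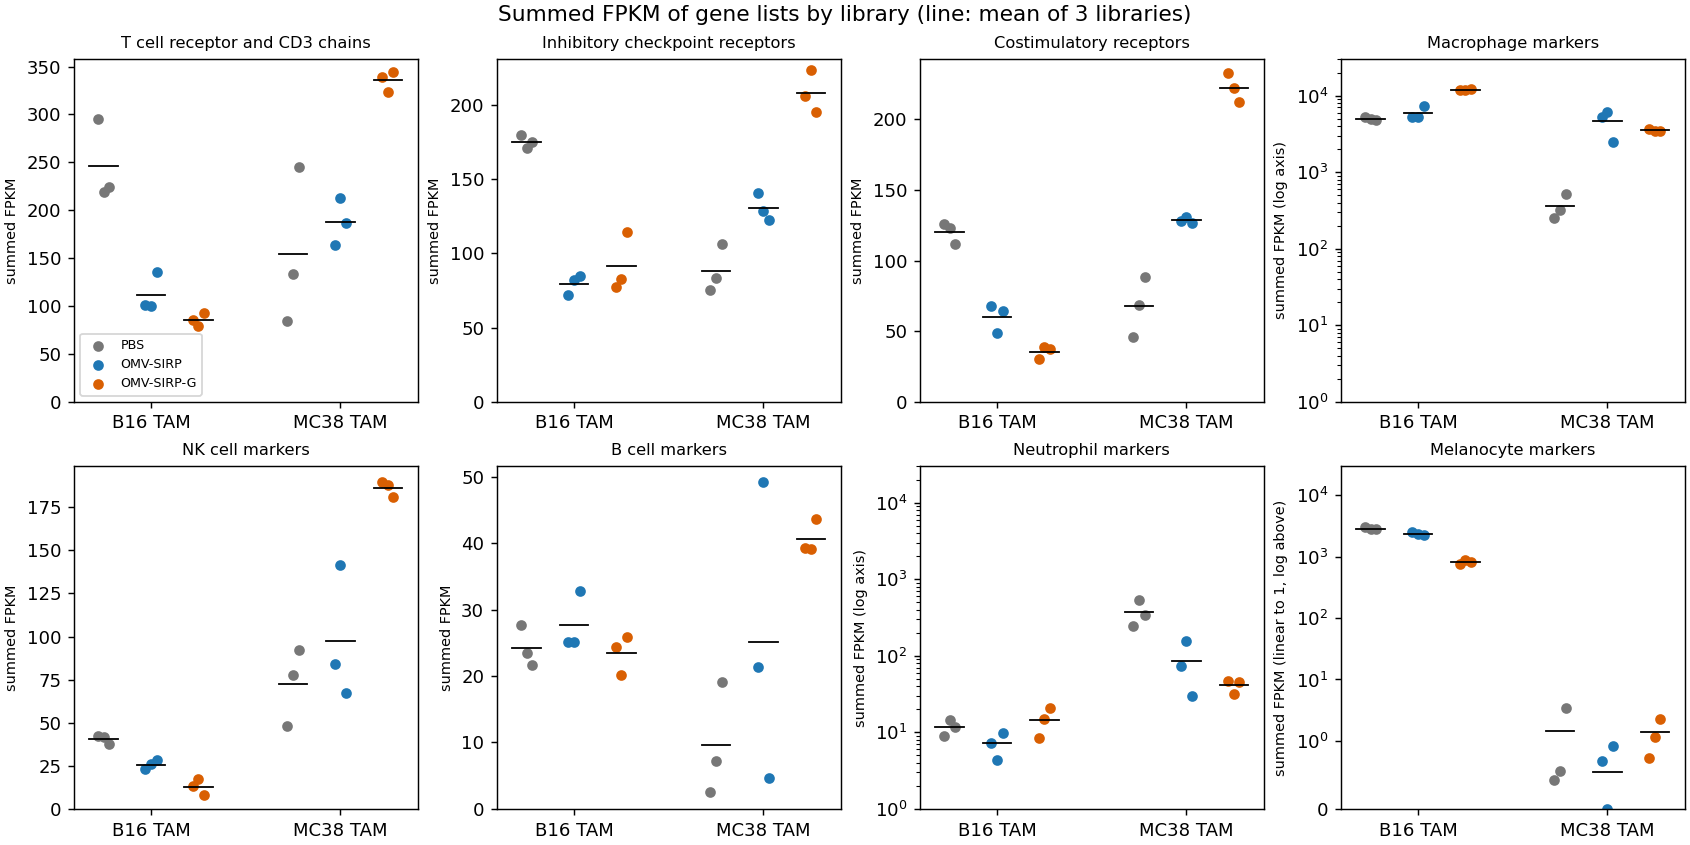
Each point is the summed FPKM of a gene list (vertical axis, FPKM, on a log axis or linear to 1 and log above where labelled so) in a library, by tumour and treatment, and each line is the mean of 3 libraries. The chain sum is 219 to 295 (PBS) and 79.5 to 92.8 (OMV-SIRP-G) in B16, and 84.6 to 245 and 323 to 345 in MC38, where the macrophage sum of the PBS libraries is also the lowest.

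To see members apart from the amount of T cell RNA, each was expressed as a percentage of the summed FPKM of the 7 chain genes of its library, which is a description with no test. A gene whose FPKM did not change is higher on this scale wherever the chain sum is lower. Of the 34 members outside the chains, 7 were higher in every B16 OMV-SIRP-G library than in every PBS library and 4 lower, and 23 overlapped. Of all genes tested outside the chains 73.1% were higher in the same way and 2% lower, so most genes of the table were higher per chain and most of these members were not. The 7 were Cd8a, Cd8b1, Il7r, Pdcd1, Lag3, Havcr2 and Eomes, and the 4 were Lef1, Tnfrsf4, Gimap5 and Ms4a4d, of which Lef1 and Ms4a4d were not tested in B16. Havcr2 was at 4.23, 6.85 and 6.5% of the chain sum after PBS and 17.2, 26.4 and 18.5% after OMV-SIRP-G. Il7r was at 3.80, 3.80 and 4.95% and 13.8, 14.2 and 15.6%, and Pdcd1 at 13.2, 15.3 and 13.5% and 21.8, 22.2 and 29.5%. In MC38, Pdcd1 went the other way, from 28.7, 22.7 and 14.4% after PBS to 11.5, 13.2 and 9.94% after OMV-SIRP-G, and so did Cd8b1, from 29.4, 18.6 and 17.3% to 10.02, 11.5 and 7.85%. The MC38 members higher per chain after OMV-SIRP-G were Cd4, Cd28, Il7r, Tnfrsf18 and Gimap4, and 2 of the 34 were lower, against 7.26% and 45.2% of all genes. Cd4 was at 1.71, 1.86 and 1.69% after PBS and 5.06, 4.82 and 5.27% after OMV-SIRP-G. After OMV-SIRP, 30 of 34 overlapped with PBS in B16, where 71.9% of all genes were higher and 0.558% lower, and 29 in MC38, where 6.75% were higher and 11.9% lower. The exceptions were Il2ra and Havcr2 (higher) and Il2rb and Gimap4 (lower) in B16, and Lag3, Tnfrsf9 and Tnfrsf18 (higher) and Cd2 and Pdcd1 (lower) in MC38.

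**Figure D4:**
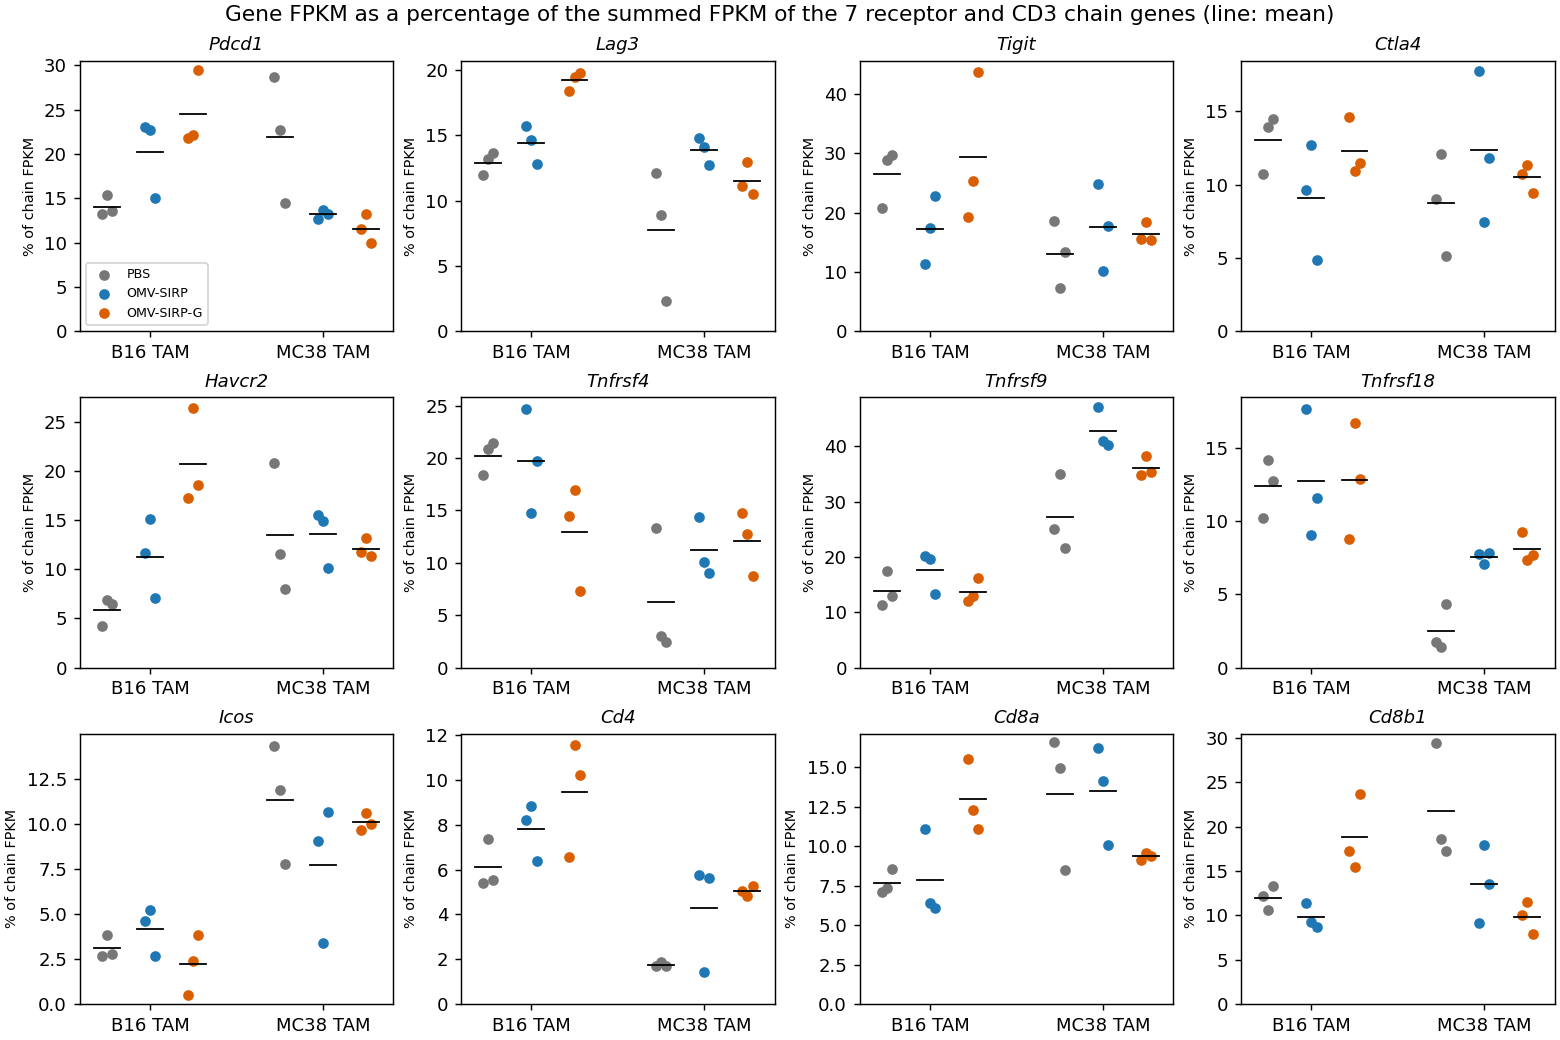
Each panel gives the FPKM of a checkpoint, costimulatory or coreceptor gene as a percentage of the summed FPKM of the 7 chain genes (vertical axis) in each library, by tumour and treatment, with the mean of 3 libraries as a line. Pdcd1 in B16 is at 13.2, 15.3 and 13.5% (PBS) and 21.8, 22.2 and 29.5% (OMV-SIRP-G), and Tnfrsf18 in MC38 is above every PBS library after both treatments.

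Set against the macrophage markers instead, the chain sum was lower after treatment in both tumours. It was 5.70, 4.49 and 4.73% of the macrophage marker sum in the B16 PBS libraries, 1.92, 1.88 and 1.87% after OMV-SIRP and 0.725, 0.669 and 0.766% after OMV-SIRP-G. In MC38 it was 33.4, 41.7 and 47.2% after PBS, 3.09, 3.53 and 7.62% after OMV-SIRP and 9.32, 9.26 and 9.85% after OMV-SIRP-G. The MC38 libraries labelled PBS, with the lowest macrophage marker sums, thus had the highest percentages.

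The variable segments of the receptor genes, which each T cell clone joins to the constant regions, were also counted. In B16, 15 to 28 Trav and 8 to 18 Trbv segments had a read after PBS. The ranges were 6 to 8 and 4 to 8 after OMV-SIRP, and 1 to 8 and 5 to 9 after OMV-SIRP-G. Summed Trbv reads, scaled to 1e+06 assigned reads, were 28.2 ± 1.47 after PBS, 5.43 ± 2.73 after OMV-SIRP and 11.2 ± 3.35 after OMV-SIRP-G (SD, n = 3). Summed Trav reads were 14.9 ± 4.74, 6.04 ± 1.24 and 3.78 ± 3.38, so the means of the treated groups stood in the opposite order to Trbv. For Trav the treated groups overlapped, at 4.61 to 6.82 and 0.0705 to 6.70, and OMV-SIRP-G 3 had only 1 Trav read. In MC38, 1 to 9 Trav and 1 to 8 Trbv segments had a read after PBS, 3 to 23 and 2 to 18 after OMV-SIRP, and 17 to 20 and 13 to 16 after OMV-SIRP-G. On the same scale the Trbv reads were 16.8 ± 14.9, 16.6 ± 5.70 and 24.6 ± 3.56 and the Trav reads 10.2 ± 9.36, 12.8 ± 8.16 and 11.6 ± 4.39. The B16 Trav counts after treatment lay below those after PBS, while the Trbv counts overlapped. In MC38 both counts after OMV-SIRP-G lay above those after PBS, and the OMV-SIRP ranges overlapped those of both other groups. The number detected depends on how many reads fall on the segments, and it is not a count of clones.

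Bone marrow populations of the same study served as a background. In granulocyte-macrophage progenitors 10 of 41 members reached 1 FPKM in at least 3 of 9 libraries, and in monocytes 6 did. The chain sum was 0.139 to 2.77 FPKM in the progenitors and 1.18 to 6.91 in the monocytes. The members with the highest medians were Ikzf2 (4.73 FPKM) and Tnfrsf18 (3.57) in the progenitors and Cd28 (3.96), Havcr2 (3.65) and Tnfrsf18 (3.49) in the monocytes. These tables were scaled separately from the tumour tables, and no test was made between them.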

How the data were processed

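RNA of tumour-associated macrophages was sequenced in 18 libraries, 3 per treatment in each of 2 tumour models, and 18 bone marrow libraries served as background. The authors deposited FPKM per gene. Per the submitters' processing notes, reads were handled with HISAT2 2.0.5, StringTie and featureCounts 1.5.0-p3 on GRCm38, and per the labels' protocols the RNA came from TRIzol and a NEBNext mRNA kit. Whether counting used strand is not given in the sources used here. Multiplied by gene length, 100% of the FPKM came out as whole reads (tolerance 0.05 reads).

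Each tumour table was tested alone with limma 3.58.1 (statmod 1.5.0, R 4.3.3; trended, robust) on log2(FPKM + 1), over its 9 libraries, for genes at 1 FPKM or more in at least 3 libraries. p-values were adjusted by Benjamini-Hochberg over all genes tested, with a threshold of 0.05, for 6 comparisons. The fit was also run on simulated data with the same spread in all groups and 200 changed genes. That setting is simpler than these data, and no result here rests on it. A fold on this scale understates the change of low genes. limma voom on the recovered reads, added as an alternative, called 24, 34 and 6 members in B16 (OMV-SIRP and OMV-SIRP-G against PBS, then OMV-SIRP-G against OMV-SIRP) and 3, 27 and 1 in MC38. Over all genes it called 189, 2138 and 1669 of 12542 in B16 and 1589, 3033 and 89 of 14089 in MC38, in the same order. Every member is accounted for, and of the further T cell genes up to 4 per comparison with the lowest adjusted p are named, apart from 1 that is not reported here. The members and lists were chosen with earlier results of these data known.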

Additional observations from a re-analysis of the deposited data

Results flagged for a closer look

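The following members drew attention because the tumours moved in opposite directions under the same comparison, with every library of the first group on 1 side of every library of the second in B16 and on the other side in MC38. There were 30 such members for OMV-SIRP-G against PBS, 8 for OMV-SIRP against PBS and 8 for OMV-SIRP-G against OMV-SIRP, of 39 tested in both tumours. Of the 11380 genes tested in both, 6.20%, 2.49% and 2.65% met the same criterion, in that order. The criterion did not use the adjusted p. For OMV-SIRP against PBS only Lag3 passed the threshold in both tumours, and for OMV-SIRP-G against OMV-SIRP none passed in MC38. For OMV-SIRP-G against PBS, Cd3d, Cd3g, Cd247, Il2ra, Il2rb, Tcf7, Foxp3 and Ikzf2 did not pass in MC38, and Cd28, Tbx21 and Ikzf2 not in B16. The tumours are in separately scaled tables, so the difference between them was not tested. The values in brackets are log2 changes of FPKM + 1 in B16 and then in MC38, and the libraries labelled MC38 PBS went against their TAM label.

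For OMV-SIRP-G against PBS they included the receptor and CD3 chain genes Cd3d (-1.88 and 0.75), Cd3g (-1.43 and 0.45), Cd247 (-0.86 and 1.43), Trbc1 (-0.86 and 1.66) and Trbc2 (-1.76 and 1.58). There were also the coreceptor and accessory genes Cd4 (-0.82 and 2.35), Cd8a (-0.71 and 0.77), Cd2 (-1.91 and 1.41), Cd5 (-0.83 and 1.28), Cd6 (-1.27 and 1.54) and Cd28 (-0.92 and 1.65). There were also the signalling genes Lck (-1.36 and 1.31), Zap70 (-1.5 and 1.51) and Lat (-1.72 and 1.87). There were also the cytokine receptor genes Il2ra (-1.23 and 0.82) and Il2rb (-1.49 and 1.09). Further such members were the transcription factor genes Tcf7 (-1.92 and 1.19), Tbx21 (-1.40 and 2.98), Foxp3 (-1.80 and 1.04) and Ikzf2 (-0.59 and 0.47); the checkpoint receptor genes Ctla4 (-1.5 and 1.51), Lag3 (-0.90 and 2.0) and Tigit (-1.38 and 1.62). The remainder comprised the costimulatory receptor genes Icos (-1.66 and 1.08), Tnfrsf4 (-2.13 and 2.42), Tnfrsf9 (-1.44 and 1.67) and Tnfrsf18 (-1.41 and 2.67) and the Gimap genes Gimap3 (-1.20 and 1.58), Gimap4 (-1.53 and 1.81) and Gimap6 (-0.88 and 1.73). For OMV-SIRP against PBS the members were Lck (-1.5 and 0.58), Zap70 (-1.19 and 0.65), Lat (-1.43 and 0.87), Lag3 (-0.94 and 1.44), Tnfrsf4 (-1.16 and 1.5), Tnfrsf9 (-0.76 and 1.07), Tnfrsf18 (-1.08 and 1.78) and Gimap6 (-0.93 and 0.82). For OMV-SIRP-G against OMV-SIRP the members were Zap70 (-0.31 and 0.86), Il2ra (-1.04 and 1.78), Tcf7 (-0.88 and 1.70), Foxp3 (-0.78 and 1.09), Icos (-1.04 and 1.32), Tnfrsf4 (-0.97 and 0.92), Tnfrsf9 (-0.68 and 0.60) and Gimap5 (-0.99 and 0.66).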

How the results depend on the processing

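No member past the threshold changed direction under any alternative run. For OMV-SIRP against PBS in B16, the 17 members past the threshold became 11 with no filter on low values and 7 to 21 leaving out 1 library. For OMV-SIRP-G against OMV-SIRP in B16, the 6 became 1 with no filter, 1 with only the groups compared and 2 to 4 leaving out 1 library. For OMV-SIRP against PBS in MC38, the 3 became 1 with only the groups compared, 1 to 7 leaving out 1 library, and 8 without PBS 3 and OMV-SIRP 2 together, an alternative chosen after seeing the data. For OMV-SIRP-G against OMV-SIRP in MC38, the 0 became 1 with scaling to total reads, 1 with limma voom, 1 with only the groups compared, 0 to 3 leaving out 1 library, and 12 without those libraries together. Over all MC38 genes, calls without those libraries together went from 1534 to 2042 for OMV-SIRP against PBS. They went from 54 to 644 for OMV-SIRP-G against OMV-SIRP. The member counts for OMV-SIRP-G against PBS stayed between 24 and 33 in B16 and between 16 and 29 in MC38 leaving out 1 library. The causes were not tested.

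Same-numbered libraries deviated together weakly or not at all (correlations 0.000101 to 0.0779 in B16 and -0.0343 to 0.0534 in MC38). In B16 every OMV-SIRP library correlated best with the PBS library of its own number. In each of the other comparisons not every library did so. Replicate numbers are those of the titles, and another label numbers the MC38 OMV-SIRP-G libraries 2 to 4, so the MC38 correlations and blocked counts rest on the titles. With the replicate number as a block, the counts were 13, 30 and 3 in B16 and 2, 21 and 0 in MC38, in the order OMV-SIRP against PBS, OMV-SIRP-G against PBS, OMV-SIRP-G against OMV-SIRP. With 3 libraries a group, members near the threshold depend on single libraries, and genes near 1 FPKM carry few reads.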
